A study of Mus musculus with 4 samples.

Results

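The GABA-A receptor subunit genes Gabra2, Gabra3, Gabra4, Gabra5, Gabrb1, Gabrb2 and Gabrd were followed in mouse hippocampus. They were taken by name, and all 7 were found among the 16149 genes of the deposited tables and passed the filter on low values, which left 15708 genes. The tables hold 14 GABA-A subunit genes in all, and these 7 held 55.2% and 56.2% of the subunit signal in the KO-WD libraries and 53.8% and 53.9% in the WT-WD libraries. The libraries came from Tas1r3 knockout mice (KO-WD, n = 2) and wild-type mice (WT-WD, n = 2). Tas1r3 encodes a subunit of the sweet and umami taste receptors. All mice, wild-type included, received a western diet for 18 weeks, so the comparison describes genotype on 1 diet. The labels give no strain, sex, age or allele. Nor do they tie each library to an animal of its own, and the spread behind each p-value may thus be technical.

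GABA-A receptors are chloride channels of 5 subunits that carry fast inhibition in the brain. A typical receptor joins alpha and beta subunits with a gamma or delta subunit, GABA binds between alpha and beta subunits, and the alpha subunit sets much of the location and the drug response of the receptor. In the hippocampus, receptors with Gabra2 or Gabra3 lie mainly at synapses. Receptors with Gabra5 are abundant on pyramidal cell dendrites and largely outside synapses, and receptors with Gabra4 and Gabrd carry tonic inhibition in dentate granule cells.

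Sequences are shown for an exon by which GENCODE transcripts of Gabrb2 differ. They are also shown for the adjoining starts of Gabra4 and Gabrb1, the members whose spans overlap each other. The Gabrb2 transcript NM_008070 matches a GENCODE transcript with 9 coding exons and 1422 coding bases. Another GENCODE transcript of Gabrb2 has 10 coding exons and 1536 coding bases. The added exon of 114 bases (38 codons) lies at chr11:42602115-42602228 on the plus strand of GRCm38, and NM_008070 lacks it. It encodes part of the large loop between the last membrane segments, which sets the long form of the beta subunit apart from the short one. The exon, and the 30 bases around the junction that replaces it in NM_008070 with the downstream exon in capitals, are as follows.
Gabrb2 exon: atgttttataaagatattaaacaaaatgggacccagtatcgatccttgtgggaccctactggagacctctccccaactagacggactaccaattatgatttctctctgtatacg
Gabrb2 junction: ctggatgtcaacaagATGGACCCCCATGAG

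Gabra4 and Gabrb1 lie next to each other on chromosome 5, on opposite strands, and their spans overlap at their starts in the RefSeq gene table. RefSeq promoter windows (250 bases before to 50 after a start, GRCm38.p6) were found for 6 of the 7 genes. They are shown for the Gabra4 start at chr5:71658259-71658558 (minus strand) and for the neighbouring Gabrb1 start at chr5:71657671-71657970 (plus strand). Gabrb1 has another window at chr5:71699682-71699981 (plus strand), which is not shown. The Gabra4 start is that of the GENCODE transcript matching NM_010251. Capitals mark GC boxes (GGGCGG on either strand).
Gabra4 start: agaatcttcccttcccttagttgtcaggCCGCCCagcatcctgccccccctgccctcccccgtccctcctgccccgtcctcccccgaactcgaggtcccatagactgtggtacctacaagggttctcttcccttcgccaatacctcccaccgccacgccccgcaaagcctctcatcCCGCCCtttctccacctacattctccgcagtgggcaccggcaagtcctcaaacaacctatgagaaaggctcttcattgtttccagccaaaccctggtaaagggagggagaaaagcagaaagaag
Gabrb1 start: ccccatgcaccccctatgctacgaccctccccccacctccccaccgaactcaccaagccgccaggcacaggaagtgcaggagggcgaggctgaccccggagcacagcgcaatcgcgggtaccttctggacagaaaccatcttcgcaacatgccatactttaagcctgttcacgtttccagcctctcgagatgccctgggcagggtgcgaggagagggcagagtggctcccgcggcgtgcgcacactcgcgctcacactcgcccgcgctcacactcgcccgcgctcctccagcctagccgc

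Of 32851 RefSeq windows of the same length, 35.7% hold a GC box. The GC box was found in 3 of the 10 windows of the subunit genes (Gabra2, Gabra4 and 1 window of Gabrb2), and the Gabrb1 window shown holds none. The search also covered, on both strands, TATAAA (3 of 10 windows, 13.6% of all), TGACGTCA (0 of 10, 1.79% of all) and CACGTG (0 of 10, 7.15% of all). None of these motifs contains another, and a match describes the window alone. A longer motif, that of NRF1, was also searched, and its counts are not given here.

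Values are the authors' normalized signal per RefSeq transcript, summed per gene, in units of which each library holds nearly the same total. Estimated depth lay between 11591322 and 15950619 reads. Tas1r3 itself was at 0.887 and 1.85 units in KO-WD, against 16.1 and 15.9 units in WT-WD, with both KO-WD libraries far lower (log2 difference -2.88, SE 0.34, limma adjusted p = 0.0817). Each gene was tested with limma on log2(signal + 1), with Benjamini-Hochberg adjustment over all 15708 genes, and fold changes on that scale understate the change of low genes.

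None of the 7 subunit genes passed the adjusted threshold of 0.05 in limma, and none had an unadjusted p under 0.05. Over all genes 10 passed, 0.0637%, and 829 had an unadjusted p under 0.05, 5.28%. The median log2 difference of the 7 genes was -0.026, with a range from -1.03 (Gabra2) to 0.084 (Gabra5), and the median of all genes was 0.00024. The libraries of the genotypes did not overlap in 1 of the 7 genes (Gabra4), against 36.3% of all genes. In bulk tissue, fewer cells of a type and less RNA per cell cannot be told apart.

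**Figure D1:**
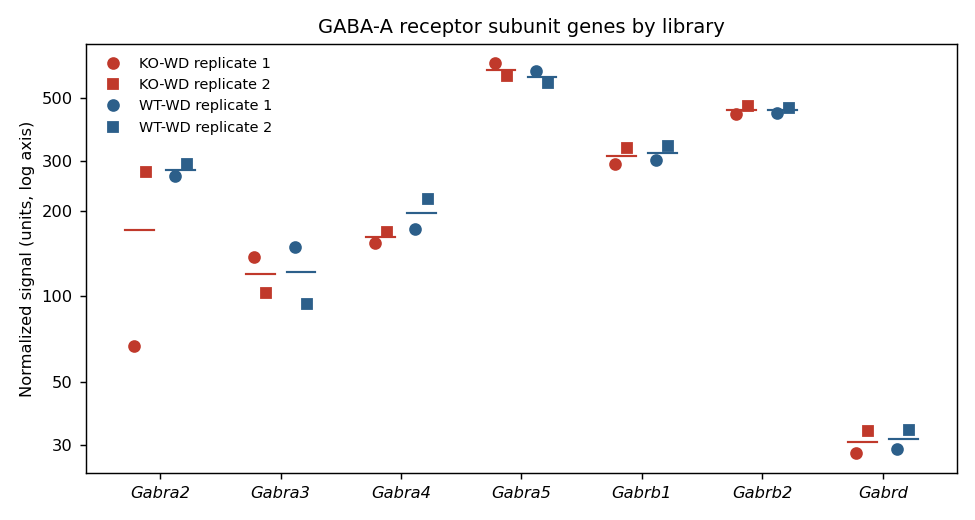
Normalized signal of the 7 subunit genes in each library on a log axis; points are libraries and short lines are group means. The genotypes overlap for all genes but Gabra4, and Gabra2 in KO-WD replicate 1 sits at 66.7 units, apart from the other 3 libraries.

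Gabra2, an alpha subunit of synapses on the pyramidal cell body and axon start, was at 66.7 units in KO-WD replicate 1 and 273.7 in the other KO-WD library, against 263.8 and 292.0 units in the WT-WD libraries. A single KO-WD library was low, and the other lay between the WT-WD libraries. The low value rests on an estimated 301 reads, against 1182 in KO-WD replicate 2 and 1021 and 1557 in WT-WD. The other 3 libraries were between 3.95-fold and 4.38-fold above it. The log2 difference was -1.03 (SE 0.94, 95% interval -4.58 to 2.52, limma adjusted p = 0.929). It was -0.020 (adjusted p = 0.982) without KO-WD replicate 1 and -2.04 (adjusted p = 0.000586) without KO-WD replicate 2, where the lone KO-WD library was assumed to vary like the others.

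Gabra2 was singled out by its low value, so the counts that follow describe how often a single low library occurred and are no test. Among 7516 tested genes that average at least 50 units, KO-WD replicate 1 was lowest by at least 1 log2 unit in 28, 0.373%. The same count was 35 for KO-WD replicate 2, 37 for WT-WD replicate 1 and 46 for WT-WD replicate 2. The gap of Gabra2 to the next library was 1.97 log2 units, rank 8 among the 1945 of these genes that were lowest in KO-WD replicate 1. Gabra4 and Gabrb1, members of the same gene cluster on chromosome 5, were at 153.8 and 291.3 units in that library, against 168.6 and 333.4 in KO-WD replicate 2. The summed neuronal markers were at 10422 units there, against 11004 in KO-WD replicate 2 and 11425 and 11374 in WT-WD, and their part in the Gabra2 value was not tested.

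Gabra3, the alpha subunit best known from monoaminergic and thalamic reticular neurons, was at 136.8 and 102.4 units in KO-WD and at 148.9 and 93.8 units in WT-WD. Within each genotype 1 library was high and 1 low. The log2 difference was 0.0024 (SE 0.26, limma adjusted p = 1.00), with a 95% interval from -0.67 to 0.67. The sign turned on the library left out, with -0.20 without KO-WD replicate 1, 0.21 without KO-WD replicate 2, 0.33 without WT-WD replicate 1 and -0.33 when WT-WD replicate 2 was omitted.

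Gabra5, the alpha subunit that marks hippocampal pyramidal cells, was at 659.1 and 596.0 units in KO-WD and 621.3 and 562.3 units in WT-WD. The genotypes overlapped, and the mean signal was 627.6 ± 44.6 in KO-WD and 591.8 ± 41.7 in WT-WD (SD, n = 2 each). The log2 difference of 0.084 (SE 0.11, limma adjusted p = 0.942) had a 95% interval from -0.18 to 0.35, which allows between 0.883 and 1.27 times the WT-WD level.

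Gabra4, the alpha subunit that partners Gabrd in granule cells, was at 153.8 and 168.6 units in KO-WD and 171.9 and 219.5 units in WT-WD. Both KO-WD libraries lay below both WT-WD libraries, though the nearest pair differed by less than the spread within either genotype. The log2 difference was -0.27 (SE 0.15, 95% interval -0.62 to 0.078, limma adjusted p = 0.902). Leaving out WT-WD replicate 1 gave -0.44, and leaving out WT-WD replicate 2 gave -0.093.

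Gabrd, the delta subunit of receptors with high GABA affinity outside synapses, was at 27.9 and 33.6 units in KO-WD and 28.9 and 33.6 units in WT-WD. These values rest on between 112 and 179 estimated reads per library. The log2 difference was -0.026 (SE 0.20, limma adjusted p = 0.994), and the 95% interval from -0.49 to 0.44 allows between 0.71 and 1.36 times the WT-WD level. Gabrd has 1 transcript in the tables (NM_008072).

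Gabrb1 and Gabrb2 encode beta subunits, which hold the GABA site together with an alpha subunit. Gabrb1 was at 291.3 and 333.4 units in KO-WD and 301.8 and 337.3 units in WT-WD, with a log2 difference of -0.034 (SE 0.12, 95% interval -0.32 to 0.25, limma adjusted p = 0.983). Gabrb2 was at 437.5 and 465.7 units in KO-WD and 441.2 and 460.2 units in WT-WD, with a log2 difference of 0.0025 (SE 0.10, 95% interval -0.24 to 0.25, limma adjusted p = 0.999). The genotypes overlapped for both beta subunits. Gabrb2, Gabra5 and Gabrb1 had the narrowest intervals of the 7 genes, whereas that of Gabra2 spans both directions by more than a log2 unit.

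**Figure D2:**
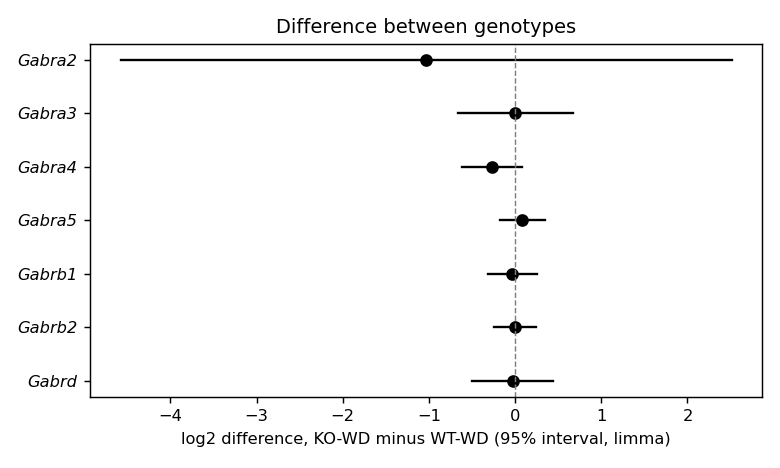
log2 difference (KO-WD minus WT-WD) of each subunit gene with its 95% interval from limma. All 7 intervals include 0, and that of Gabra2 runs from -4.58 to 2.52.

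Levels of different genes were compared per kilobase. This takes the deposited signal as not divided by length, which is read from its low values and not stated in the sources used here. For each gene the length is that of the 1 GENCODE transcript matched to a RefSeq entry of the gene, and that entry can be a minor one. It was NM_176942 for Gabra5, with 2.69% of the gene's signal in KO-WD and 6.87% in WT-WD on average, and NM_008070 for Gabrb2, with 7.01% in KO-WD and 18.5% in WT-WD. For Gabra4 it was NM_010251, with 31.9% in KO-WD and 15.7% in WT-WD. The values per kilobase are therefore approximate for genes with several transcripts. By mean over the 4 libraries Gabra5 stood highest of the 7 genes, at 228.3 units per kilobase of transcript (range 210.5 to 246.8). Gabrb2 followed at 113.1 (range 109.7 to 116.8). Gabra4 (43.4, range 37.4 to 53.4), Gabra2 (38.3, range 11.4 to 49.9) and Gabra3 (32.9, range 25.6 to 40.7) overlapped each other. Gabrb1 (23.0, range 21.2 to 24.6) had a lower mean than Gabra3, and Gabrd had the lowest mean of the 7 (16.2, range 14.5 to 17.5). In KO-WD replicate 1 Gabra2, at 11.4, lay below both Gabrb1 (21.2) and Gabrd (14.5). The middle of this order depends on the length used. Per kilobase of coding sequence Gabrb1 stood directly behind the leading pair at 222.2 units, after Gabra5 (439.0) and Gabrb2 (317.3), and the matched Gabrb1 transcript has 13737 bases of which 1422 are coding. Gabra5, Gabrb2 and Gabrd led, followed and closed the order of means on both scales.

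As shares of the summed signal of the 7 genes, the extrasynaptic-associated subunits Gabra4, Gabra5 and Gabrd together held 47.4% and 40.4% in KO-WD and 41.6% and 40.8% in WT-WD. The mainly synaptic alpha subunits Gabra2 and Gabra3 held 11.5% and 19.1% in KO-WD and 20.9% and 19.3% in WT-WD. The beta subunits held 41.1% and 40.5% in KO-WD and 37.6% and 39.9% in WT-WD. KO-WD replicate 1 stands apart in the first and second of these shares, and Gabra2 alone was 3.76% of the sum there, against 13.9% in KO-WD replicate 2 and 13.3% and 14.6% in WT-WD.

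The extrasynaptic-associated share differed by 2.75 percentage points, with means of 43.9 ± 4.93% in KO-WD and 41.2 ± 0.542% in WT-WD (SD, n = 2 each, exact permutation test, two-sided, p = 1). The difference was -0.735 points without KO-WD replicate 1 and 6.23 points without KO-WD replicate 2. For the synaptic alpha share the difference was -4.82 points (exact permutation test, two-sided, p = 0.333, which is the smallest p that 2 libraries against 2 allow). Shares of 1 library sum to a whole, so they are not independent of each other. Per kilobase of transcript the extrasynaptic-associated share was 62.4% and 56.6% in KO-WD and 57.0% and 56.6% in WT-WD.

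**Figure D3:**
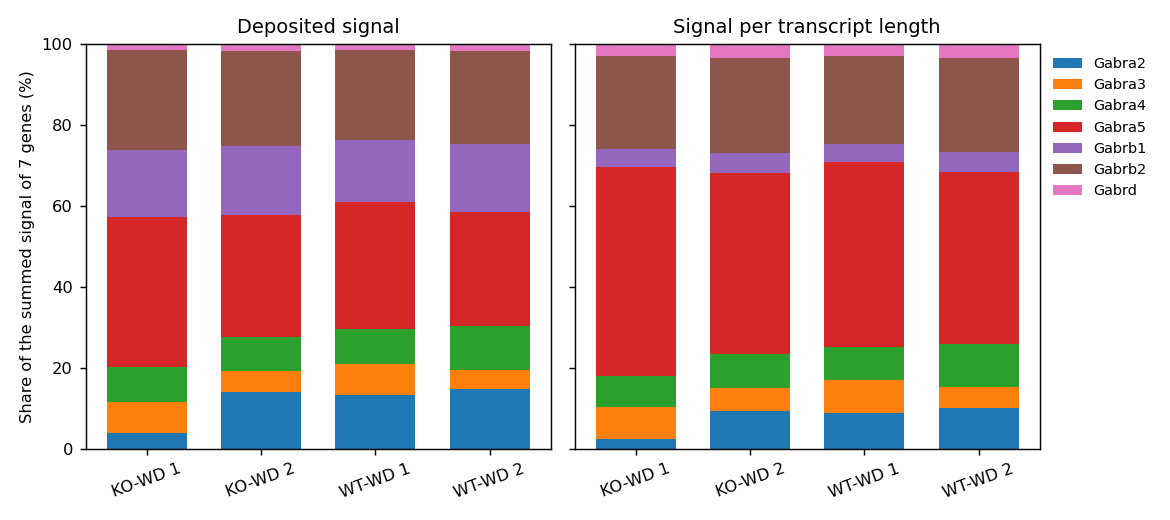
Share of each subunit gene in the summed signal of the 7 genes, for each library, from the deposited signal (left) and per transcript length (right). Gabra5 is the largest part in every library, and the Gabra2 part is narrower in KO-WD replicate 1, at 3.76% of the deposited signal, than in the other 3 libraries.

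The single transcripts of the subunit genes were examined beside the gene sums. Of the 25 transcripts listed for the 7 genes, all passed the filter. In 13 of them, 52%, the genotypes did not overlap (higher in KO-WD for 7 and lower for 6), against 35% of all 29293 transcripts tested. Of these 13, 3 are the Gabra3 transcripts whose signal kept a fixed ratio in every library and so are 1 measurement. In 4 of the 5 genes with several transcripts (Gabrb2, Gabra5, Gabra3 and Gabra4) at least 1 transcript lay apart upward and at least 1 downward, against 21.1% of the 6295 genes with at least 2 tested transcripts. That share was not matched for transcript number, and a gene with more transcripts has more occasions to meet the condition. The transcripts numbered 5 for Gabrb2, 3 for Gabra5, 5 for Gabra3 and 8 for Gabra4. Limma's test of each transcript called 0 of the 25 and 0 of all transcripts (0%). It gave an unadjusted p under 0.05 for 7 of the 25 and for 1668 of all, 5.69%. Among those 7, 2 are Gabra3 transcripts of the fixed ratio and so are 1 measurement. How the authors divided reads between transcripts that share exons is not given in the sources used here, so transcript values carry an error beyond counting.

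Gabrb2, whose summed signal overlapped between the genotypes, included transcripts that lay apart in both directions. NM_008070, which lacks the 114-base exon, was at 32.5 and 30.8 units in KO-WD and at 99.3 and 66.7 units in WT-WD. It made up 7.42% and 6.60% of the Gabrb2 signal in KO-WD, against 22.5% and 14.5% in WT-WD, with both KO-WD libraries well below both WT-WD libraries. NM_001362646 was at 199.1 and 211.0 units in KO-WD and at 120.0 and 145.1 units in WT-WD, and its share of the gene was 45.5% and 45.3% in KO-WD, against 27.2% and 31.5% in WT-WD.

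Of the other Gabrb2 transcripts, NM_001362647 was higher at 33.3 and 37.3 units in KO-WD, against 23.9 and 24.7 in WT-WD. NM_001362649 was lower at 79.2 and 67.0 units in KO-WD, against 117.4 and 93.1 in WT-WD. NM_001347314 overlapped, at 93.5 and 119.7 units in KO-WD and 80.7 and 130.6 in WT-WD. Whether these other transcripts hold the 114-base exon is not recorded in the annotation used here.

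Tested for its own level, NM_008070 had a log2 difference of -1.34 (SE 0.27, limma adjusted p = 0.816), with an unadjusted p of 0.00558 that did not survive adjustment over 29293 transcripts. Each transcript was then compared with the other transcripts of its gene by limma's diffSplice over 19889 transcripts, a test added after the values were seen. There NM_008070 fell relative to the other Gabrb2 transcripts, with a log2 difference of -1.51 (SE 0.28, adjusted p = 0.0396). It was the 1 transcript called among the 23 of the 5 subunit genes with several transcripts, where 0.573% of all transcripts were called. The test takes transcripts of 1 library as independent, although they were measured together. The call was lost when any library was left out, with adjusted p = 0.209 without KO-WD replicate 1, 0.211 without KO-WD replicate 2, 0.196 without WT-WD replicate 1, and 0.0625 once WT-WD replicate 2 was omitted, while the difference stayed between -1.87 and -1.14. The gene-wide F test of diffSplice gave Gabrb2 an adjusted p of 0.054 and called 0 of the 5 subunit genes, against 1.18% of all 6295 genes.

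**Figure D4:**
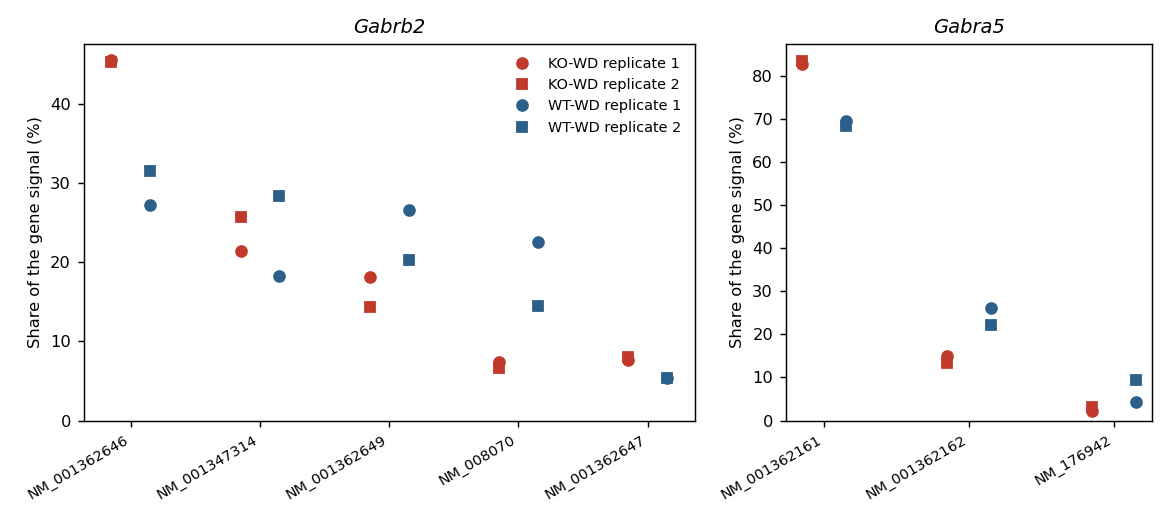
Share of each transcript in the signal of Gabrb2 (left) and Gabra5 (right); points are libraries, KO-WD left of WT-WD. NM_008070 held 7.42% and 6.60% of Gabrb2 in KO-WD and 22.5% and 14.5% in WT-WD, and NM_001362161 held 82.8% and 83.3% of Gabra5 in KO-WD and 69.6% and 68.4% in WT-WD.

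In Gabra5, too, transcripts lay apart in both directions, and none passed its test. Its main transcript NM_001362161 was at 545.7 and 496.5 units in KO-WD, against 432.3 and 384.4 in WT-WD, and both KO-WD libraries were higher. NM_001362162 was at 99.4 and 80.2 units in KO-WD, against 162.7 and 124.5 in WT-WD, and NM_176942 at 14.0 and 19.3 units in KO-WD, against 26.3 and 53.4 in WT-WD. All 3 transcripts lay apart, the main one higher and the minor ones lower in KO-WD. Limma gave no call for their own level (adjusted p = 0.878, 0.856 and 0.883, in the order given) or against each other in diffSplice (adjusted p = 0.306, 0.914 and 0.459). The span of Gabra5 on chromosome 7 overlaps that of another subunit gene in the RefSeq table. The main transcript held 82.8% and 83.3% of Gabra5 in KO-WD, against 69.6% and 68.4% in WT-WD.

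Gabra4 is spread over 8 transcripts. NM_010251, whose start is in the Gabra4 window shown, was at 44.1 and 59.0 units in KO-WD and at 34.1 and 25.4 units in WT-WD. NM_001359043 was at 13.3 and 26.4 units in KO-WD and at 34.6 and 40.0 units in WT-WD. These transcripts lay apart in opposite directions and the other 6 overlapped. NM_010251 made up 28.7% and 35.0% of Gabra4 in KO-WD, against 19.8% and 11.6% in WT-WD (limma, log2 difference of its level 0.77, SE 0.28, adjusted p = 0.871).

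Gabra3, on chromosome X, has 5 transcripts. NM_008067 was at 37.4 and 69.0 units in KO-WD and at 70.8 and 80.3 units in WT-WD. NM_001358103 was at 75.9 and 24.8 units in KO-WD and at 74.9 and 11.5 units in WT-WD, replicate 1 first. One library of each genotype was thus high, which is also how the gene sum was spread. NM_001357814, NM_001357815 and NM_001357816 together were at 23.5 and 8.63 units in KO-WD, from an estimated 106 and 37.3 reads, and at 3.20 and 1.96 units in WT-WD, from 12.4 and 10.4 reads. Their signals stood in nearly the same ratio to each other in all 4 libraries (NM_001357816 over NM_001357814 was 1.35 in each), so the tables do not measure them separately.

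Gabrb1 divided its signal between NM_008069, at 168.5 and 234.2 units in KO-WD and 189.5 and 197.6 in WT-WD, and NM_001370968, at 122.8 and 99.2 units in KO-WD and 112.3 and 139.7 in WT-WD. The genotypes overlapped for both transcripts. The share of NM_008069 was 57.8% and 70.2% in KO-WD and 62.8% and 58.6% in WT-WD.

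Gabrd lies on chromosome 4, as does the targeted gene, 20 places from Tas1r3 in the order of tested genes. Its nearest tested neighbours were Faap20 and Prkcz on one side and Cfap74 and Tmem52 on the other, and none of them passed in limma. Prkcz, an atypical protein kinase C of neurons, was at 570.5 and 516.4 units in KO-WD and 555.1 and 568.8 in WT-WD. Cfap74, a protein of motile cilia whose span overlaps that of Gabrd in the RefSeq table, was at 47.9 and 50.5 units in KO-WD and 43.6 and 46.3 in WT-WD. Whether counting used strand is not given in the sources used here, and reads in the overlap could have been given to the wrong gene. Of the 19 tested genes between Gabrd and Tas1r3, 8 were higher and 11 were lower. Among them 2 had an unadjusted p under 0.05, against 5.28% of all genes, and 0 passed in limma. Directly beyond Tas1r3, Cptp, a carrier of ceramide-1-phosphate, was at 44.8 and 37.0 units in KO-WD and 7.23 and 7.74 in WT-WD (limma adjusted p = 0.0275).

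**Figure D5:**
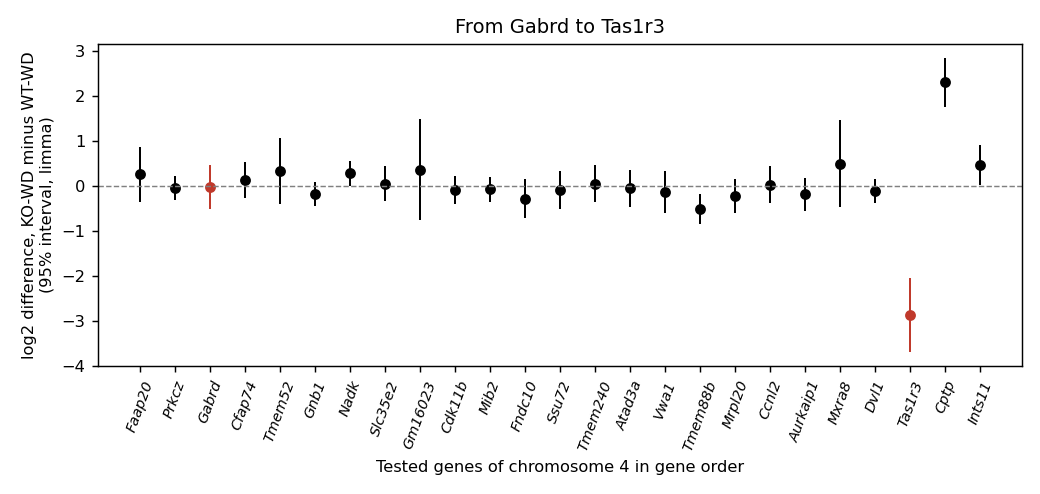
log2 difference (KO-WD minus WT-WD) with its 95% interval from limma for the tested genes of chromosome 4 in order from 2 places before Gabrd to 2 places after Tas1r3. Gabrd and Tas1r3 are in red. Gabrd sits at -0.026, Tas1r3 at -2.88 and Cptp at 2.30.

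The remaining 7 tested subunit genes, of 12 on the list, had lower mean log2 signal in KO-WD in 6 cases and higher in 1, with a median log2 difference of -0.26. That median was -0.062 without KO-WD replicate 1 and -0.067 without WT-WD replicate 2. None passed in limma over all genes, and 2 had an unadjusted p under 0.05, against 5.28% of all genes. In 3 the genotypes did not overlap, each lower in KO-WD. Over all genes 36.3% did not overlap in either direction and 18.4% in that direction. The summed signal of the remaining subunit genes was 1439 and 1539 units in KO-WD, against 1696 and 1711 in WT-WD.

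Genes that place and serve these receptors showed no called change. Of 27 genes for anchoring and trafficking, 13 were higher and 14 lower (median -0.01), with 0 past the threshold in limma and 0 at an unadjusted p under 0.05. Hap1, which carries receptors with kinesin motors, was at 428.9 and 423.4 units in KO-WD and 343.7 and 387.5 in WT-WD (log2 difference 0.22, SE 0.11). Rdx, or radixin, which anchors Gabra5 receptors to actin, was at 181.8 and 177.1 units in KO-WD and 197.5 and 226.4 in WT-WD (log2 difference -0.24, SE 0.12). The genotypes did not overlap for either gene, and the limma adjusted p was 0.902 for each. Of the 27 genes, 3 lay apart upward and 3 downward, where 36.3% of all genes did not overlap in either direction.

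Of 8 genes for GABA synthesis, release and uptake, 4 were higher and 4 lower, and 0 passed in limma or had an unadjusted p under 0.05. Slc6a13, a GABA transporter of the meninges and vessels, was at 18.5 and 8.51 units in KO-WD and 19.6 and 31.2 in WT-WD (log2 difference -0.92, SE 0.41). Aldh5a1, which completes GABA breakdown, was at 160.9 and 150.7 units in KO-WD and 145.9 and 142.1 in WT-WD. The 5 GABA-B receptor genes had a median of -0.036. Kctd8, an auxiliary subunit, was at 10.5 and 6.98 units in KO-WD and 13.9 and 9.29 in WT-WD, and Gabbr2, a subunit of the receptor itself, was at 1386 and 1232 units in KO-WD and 1285 and 1210 in WT-WD. Among 9 genes of the chloride gradient, Slc12a2, the importer NKCC1, was at 162.4 and 149.8 units in KO-WD and 145.2 and 104.4 in WT-WD (log2 difference 0.34, SE 0.17, limma adjusted p = 0.902). Stk39, a kinase that activates it, was at 103.9 and 92.5 units in KO-WD and 90.9 and 86.4 in WT-WD. Again 0 of either list passed in limma or had an unadjusted p under 0.05.

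Marker lists place the subunit values in their tissue. The 5 neuronal markers were all slightly lower in KO-WD (median -0.082), the 12 interneuron markers had a median of -0.09, and the 7 dentate granule cell markers one of 0.14, with 0 genes passing in limma. An unadjusted p under 0.05 was found for 0, 1 and 2 of them, in the same order of lists, against 5.28% of all genes. Prox1 and C1ql2, which define granule cells, were present at 193.2 and 223.7 and at 176.6 and 202.1 units in KO-WD, against 182.0 and 195.0 and 162.3 and 183.5 in WT-WD. CA1 and the joint CA3 and CA2 markers had medians of -0.10 and 0.18. Thalamic, neocortical and striatal markers summed to between 264 and 334, 353 and 412, and 333 and 402 units per library, with medians of -0.016, -0.11 and 0.31. The interneuron median was 0.11 without KO-WD replicate 2, and the neocortical median was 0.048 without KO-WD replicate 1. The CA1 and thalamic medians also changed sign with the library left out, between -0.24 and 0.026 and between -0.21 and 0.11. Choroid plexus markers summed to 7462 and 3808 units in KO-WD and 3742 and 1539 in WT-WD, 12 of 12 higher, and oligodendrocyte markers to 93412 and 83874 units in KO-WD and 100570 and 114807 in WT-WD, 9 of 9 lower. Astrocyte and microglia markers had medians of -0.083 and -0.20 (microglia -0.060 without WT-WD replicate 2), and 0 markers of these lists passed in limma, though 7 choroid plexus, 5 oligodendrocyte, 2 astrocyte and 1 thalamic marker had an unadjusted p under 0.05. The part of these cell types in the subunit values was not tested.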

How the data were processed

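Total RNA of 4 hippocampus samples was made into libraries with a kit for Ion sequencers, per the labels' protocols. STAR, Partek and the build mm39 are named, without roles, per the submitters' processing notes. How transcripts were quantified, from which annotation release and with what use of strand is not given in the sources used here. The authors deposited normalized signal for 30108 RefSeq transcripts per library, scaled to nearly equal totals. A constant of 0.0001 was subtracted, and transcripts were summed per symbol of the RefSeq table for GRCm38.p6 (30073 matched, 35 kept their identifier). Low values pile up at multiples of 1 step per library, which gave estimated depths of 11591322 to 15950619 reads. Between 16.7% and 23.4% of values below 20 reads were whole within 0.02 read, so no count model was used.

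Genes reaching 1 unit in 2 or more libraries were tested on log2(signal + 1) in limma 3.58.1 (R 4.3.3) with trend and robust moderation, genotype as the only term and Benjamini-Hochberg adjustment, all p two-sided. The design also had a test for counts, which this unit did not call for. Lengths come from 1 GENCODE M21 transcript per gene, matched by RefSeq identifier. Alternatives were quantile and median-ratio scaling, no filter or 5 units, pseudocounts of 0.1 and 0.5, no trend or robust moderation, coding transcripts alone, the replicate number as a block and each library left out. The comparison within genes (diffSplice), the crossed block and, for transcripts, the pseudocount of 0.1 and quantile scaling were added after seeing the data. The members and lists were chosen with earlier results of these data known. Named are all members, in each GABA list genes with the smallest p, and the 2 tested neighbours on each side of Gabrd. The remaining subunit genes are given by counts. Cptp was named after its value was seen.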

Additional observations from a re-analysis of the deposited data

How the results depend on the processing

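The subunit genes stayed uncalled under every setting that kept all 4 libraries. Gabra3 and Gabrb2, which lie near 0, changed sign under quantile normalization (-0.0054 and -0.0042). With 1 library left out, between 0 and 1 of the 7 genes passed in limma, the 1 being Gabra2 without KO-WD replicate 2. The log2 differences then ranged from -2.04 to -0.020 for Gabra2, -0.33 to 0.33 for Gabra3, -0.44 to -0.093 for Gabra4, 0.012 to 0.16 for Gabra5, -0.13 to 0.063 for Gabrb1, -0.042 to 0.047 for Gabrb2 and -0.15 to 0.10 for Gabrd.

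Over all genes limma called 10, against 0 without trend or robust moderation, 1 with coding transcripts alone and 18 to 93 with 1 library left out. The cause was not tested. Same-numbered libraries deviated together only weakly (r = 0.038 across 15708 genes), and no label says that the numbers pair the samples. With the replicate number as a block limma called 47 genes and 0 of the 7, and with the numbers crossed 3. For NM_008070 of Gabrb2 against the other Gabrb2 transcripts the block gave -1.51 (adjusted p = 0.0798), and leaving out 1 library gave -1.87 to -1.14. Over all genes 114 transcripts were called in that comparison, against 11 with the block and 0 to 28 with 1 library left out. Groups of 2 libraries limit every interval, and estimated reads speak of counting error only.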
